A study of Rattus norvegicus with 12 samples.

Results

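Umod, Dpep1 and Alpl, a set of 3 genes used as markers of the differentiated kidney tubule, were read on whole-transcript arrays of fetal rat kidney. They were taken by name from the deposited table, as the rows whose only gene symbol is Umod, Dpep1 or Alpl. Each symbol had 1 transcript cluster (a group of probes that reads 1 gene), so 3 clusters of 36685 were used, or 3 of the 14557 genes with a symbol of their own. The genes had been selected on measured values, namely the difference between CPS and LD over these same 12 arrays, which was known when they were chosen. That difference is therefore described without a test, and it supports nothing about the genes.

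The 12 arrays held 6 pools of fetal kidneys from CPS (chronic photoperiod shifting) pregnancies and 6 pools from LD (light-dark) pregnancies of Sprague-Dawley rats, at 19 days of gestation. CPS mothers had their light schedule reversed again and again through gestation and were put back on the regular cycle shortly before collection. LD mothers stayed on 12 h of light and 12 h of dark. The sample labels give each pool as kidneys of 6 fetuses of 1 mother, with males and females not told apart, so differences among siblings and between the sexes are averaged. The same labels give the hour of collection as 20 in one field and as 8 in another, for both groups alike. Values are log2 signals from RMA (Robust Multiarray Average), a procedure that removes background, brings all arrays to 1 distribution and joins the probes of a cluster. One unit is a doubling of signal.

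The kidney tubule runs from the end of the nephron that takes up the filtrate to the end that adjusts its salt content. As its cells leave the progenitor state they begin to make proteins of the luminal membrane. Umod encodes uromodulin, a protein of the thick ascending limb of the loop of Henle that is shed into urine as filaments. Dpep1 encodes membrane dipeptidase, an enzyme of the proximal tubule brush border that splits cysteinylglycine from glutathione breakdown and converts leukotriene D4. Alpl encodes the tissue-nonspecific alkaline phosphatase, which frees phosphate from pyrophosphate and other substrates, is found on the proximal brush border and is best known from mineralizing bone. All of them are held on the outer membrane by a glycosylphosphatidylinositol (GPI) lipid anchor.

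On the RefSeq annotation of rat build GRCr8, Umod spans chr1:183247676-183261665, Dpep1 chr19:68118270-68143781 and Alpl chr5:155234770-155289785. The 250 bases before the RefSeq start used for each gene are shown because the markers are discussed as a set, and their upstream sequences differ in composition. Capitals mark the motifs that were found. The windows are chr1:183261017-183261266 on the minus strand, chr19:68127908-68128157 on the plus strand and chr5:155289786-155290035 on the minus strand. Those of Umod and Dpep1 lie inside the full span of the gene, since other transcripts start farther upstream.
Umod: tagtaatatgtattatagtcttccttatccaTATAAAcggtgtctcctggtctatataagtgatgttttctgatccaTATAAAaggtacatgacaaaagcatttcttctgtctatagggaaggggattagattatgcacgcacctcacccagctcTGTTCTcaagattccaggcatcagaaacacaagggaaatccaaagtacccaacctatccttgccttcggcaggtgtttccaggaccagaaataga
Dpep1: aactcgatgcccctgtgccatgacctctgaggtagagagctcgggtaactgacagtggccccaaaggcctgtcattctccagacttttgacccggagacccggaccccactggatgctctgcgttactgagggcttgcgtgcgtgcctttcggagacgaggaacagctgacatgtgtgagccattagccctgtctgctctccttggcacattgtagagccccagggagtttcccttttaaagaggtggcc
Alpl: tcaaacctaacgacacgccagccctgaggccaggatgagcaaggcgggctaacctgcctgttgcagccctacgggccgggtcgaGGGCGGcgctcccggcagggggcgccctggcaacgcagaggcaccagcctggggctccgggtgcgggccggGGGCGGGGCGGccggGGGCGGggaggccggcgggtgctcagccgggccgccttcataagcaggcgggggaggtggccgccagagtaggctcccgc

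The Alpl window held 76% G and C, above 97.4% of 33469 RefSeq windows of the same length, whose median was 51.2%. The Dpep1 window held 57.2% and the Umod window 40.8%. Exact letters were searched on both strands. GTTAAT (a site of HNF1, a factor of tubule cells, found in 6.45% of all windows), CAAAGTC (HNF4, 3.95%), AAGGTCA (estrogen-related receptors, 3.99%) and CACGTG (the E-box used by clock factors, 5.59%) were in none of the 3 windows. AGAACA, a part of the glucocorticoid receptor site found in 17.5% of windows, was in the Umod window alone, as TGTTCT at 95 to 90 bases before the start. GGGCGG and TATAAA were looked for after the windows had been seen. GGGCGG, the GC box, stood at 4 places in the Alpl window and in 30.5% of all windows. TATAAA, the letters of the TATA box, stood at 219 to 214 and at 173 to 168 bases before the Umod start. It was in 12.9% of all windows. Whether these matches act as such a box was not tested. The letters of GGGCGG and TATAAA do not overlap with those of the other motifs searched.

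Alpl was higher on average in CPS than in LD, with less overlap between the groups than for Umod or Dpep1. In CPS pools, replicates 1 to 6, the log2 signal of Alpl was 5.65, 5.96, 5.87, 6.06, 6.07 and 5.73. In LD pools it was 5.68, 5.62, 5.60, 5.75, 5.48 and 5.47. Of the CPS pools, 4 stood above every LD pool, while CPS replicates 1 and 6 lay within the LD range. The means were 5.89 ± 0.17 in CPS and 5.60 ± 0.11 in LD (SD, n = 6 each), a difference of 0.29 with a standard error of 0.09, or 1.22-fold. With any single pool left out the difference stayed between 0.26 and 0.34.

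Dpep1 had the largest mean difference of the 3 genes and the widest spread in CPS. Its log2 signal in CPS pools was 5.68 in replicate 5, 5.52 in replicate 1, 4.89 in replicate 4 and 4.85 in replicates 3 and 6, with replicate 2 just above the highest LD pool and a median of 4.94. In LD pools 1 to 6 it was 4.92, 4.97, 4.78, 4.74, 4.87 and 4.26. Of the CPS pools 3 (replicates 1, 2 and 5) stood above every LD pool. CPS replicates 1 and 5 stood apart at the top, the other 4 CPS pools lay close together near the top of the LD range, and LD replicate 6 stood apart at the bottom. The means were 5.13 ± 0.37 in CPS and 4.76 ± 0.26 in LD (SD, n = 6 each). They differed by 0.38 with a standard error of 0.17, or 1.3-fold, and by 0.27 without CPS replicate 5.

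Umod had the smallest difference, and its groups overlapped most. Its log2 signal was 3.39, 3.78, 3.70, 3.65, 3.90 and 3.23 in CPS pools 1 to 6. It was 3.66, 3.25, 3.71, 3.27, 3.31 and 3.18 in LD pools. Only CPS replicates 2 and 5 stood above all LD pools, and CPS replicate 6 lay below all but 1 of them. The means were 3.61 ± 0.25 in CPS and 3.40 ± 0.23 in LD (SD, n = 6 each), with a difference of 0.21, a standard error of 0.13 and a fold of 1.16. Without single pools it ran from 0.15 (CPS replicate 5 left out) to 0.29 (CPS replicate 6 left out). Umod was a dim cluster on these arrays, near the median of 3.32 over all clusters. For comparison, 1245 olfactory and vomeronasal receptor genes, most of which a kidney is not known to use, had a median of 1.71, and the value at their 95th percentile was 2.78.

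**Figure D1:**
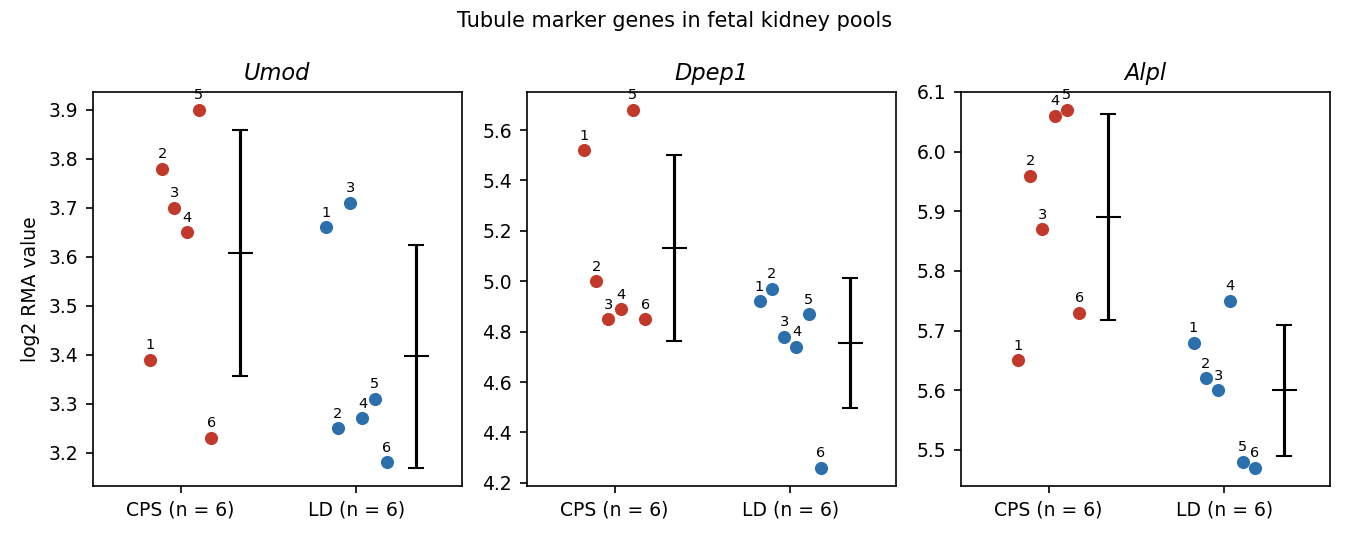
Log2 RMA value of Umod, Dpep1 and Alpl in each fetal kidney pool (vertical axes, which differ between panels and do not start at 0), CPS on the left and LD on the right of each panel. Points are pools with their replicate number, and black bars are the mean and SD of 6 pools; CPS replicate 5 is the highest of the 12 pools and LD replicate 6 the lowest in all 3 panels.

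The pools at the extremes were the same for the 3 genes. CPS replicate 5 was the highest of all 12 pools in Umod, Dpep1 and Alpl, and LD replicate 6 was the lowest in each. Between these extremes the genes ordered the pools differently. CPS replicate 1 was the second highest pool in Dpep1 and the lowest CPS pool in Alpl, and LD replicate 3 was the highest LD pool in Umod and lay below the LD median in Alpl. Set among the differences of all 14557 named genes, whose median was 0.01, Umod lay at the percentile 93.1, Alpl at 97.1 and Dpep1 at 98.7. These ranks describe genes that had been picked for their difference.

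Over all 36685 clusters, 1946 (5.30%) passed an unadjusted p under 0.05 in limma, the threshold of the study. Of these, 872 (2.38%) were higher in CPS and 1074 (2.93%) lower. Among named genes 428 (2.94%) were higher and 259 (1.78%) lower. After Benjamini-Hochberg adjustment 0 clusters passed, also with the methods' own unpaired test, and the lowest adjusted p in limma was 0.887. Single genes are given with an exact two-sided permutation p over the pools. In the counts that follow, higher and lower mean past the unadjusted threshold of limma, and the shares above are the background to read them against.

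Genes of tissues that lie beside the kidney differed between pools. All 13 measured liver genes had a positive difference, with a mean over the list of 5.70 ± 0.80 in CPS (4.80 to 6.95, highest in replicate 2) and 5.06 ± 0.84 in LD (4.32 to 6.54, highest in replicate 6). Of the 13, 0 passed the test, while 11 did without LD replicate 6 and 4 without CPS replicate 6. Of 10 adrenal cortex genes 5 were higher, and the list mean was 3.46 ± 0.31 in CPS (3.04 to 3.83) and 3.12 ± 0.15 in LD (2.89 to 3.29). That count was 3 with the methods' test and ran from 3 to 5 with a pool left out. Cyp11b1, 1 of the 5, averaged 2.64 in CPS and 1.85 in LD, both under the 95th percentile of the olfactory receptor genes (2.78). The defining markers of these tissues were Alb at 9.99 ± 1.06 in CPS and 8.95 ± 1.27 in LD, and Cyp11a1 at 4.72 ± 0.68 in CPS and 4.10 ± 0.31 in LD (SD, n = 6 each). With both list means as covariates in limma the difference of Alpl was 0.31, that of Umod 0.34 and that of Dpep1 0.65. Without the pool of highest liver mean in each group (CPS replicate 2 and LD replicate 6) these were 0.25, 0.14 and 0.30. In pooled tissue, fewer cells of a type and less RNA per cell cannot be told apart.

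Within each group, the level of Alpl followed the proximal tubule genes of the same pool closely. The proximal tubule reclaims most of the filtered sugar, amino acids and bicarbonate. The mean log2 signal of 40 of its genes was 5.50, 5.85, 5.83, 6.06, 6.03 and 5.58 in CPS pools 1 to 6. It was 5.84, 5.72, 5.75, 5.86, 5.52 and 5.38 in LD pools. Pearson's r of Alpl with this mean was 0.99 over the 6 CPS pools and 0.95 over the 6 LD pools. In both groups the exact permutation p over 720 pairings was 0.00278. Both had an adjusted p of 0.0333 over the 24 correlations computed. Spearman's rho was 0.94 in each group (exact permutation p = 0.0167, adjusted p = 0.1). Without the pair of pools farthest from the median of Alpl, r was 0.93 in CPS and 0.91 in LD.

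Umod followed the same mean less closely. Its r was 0.84 in CPS (exact permutation p = 0.0514, adjusted p = 0.204) with a rho of 0.60, and 0.53 in LD (exact permutation p = 0.247, adjusted p = 0.449) with a rho of 0.49. In CPS it rested on replicates 1 and 6, the low pools, and was 0.13 without them. After median centring of the arrays r was 0.89 in CPS and 0.54 in LD (unadjusted exact permutation p = 0.0139 and 0.262). Dpep1 had an r of -0.02 in CPS and 0.66 in LD (exact permutation p = 0.967 and 0.128), with a rho of 0.20 in CPS and 0.14 in LD. The LD value was -0.31 without LD replicates 2 and 6. With median centring, r of Dpep1 was 0.23 in CPS and 0.73 in LD (exact permutation p = 0.671 and 0.0861). CPS replicate 1, the pool of lowest proximal tubule mean in CPS, had the second highest Dpep1 signal of all 12 pools.

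**Figure D2:**
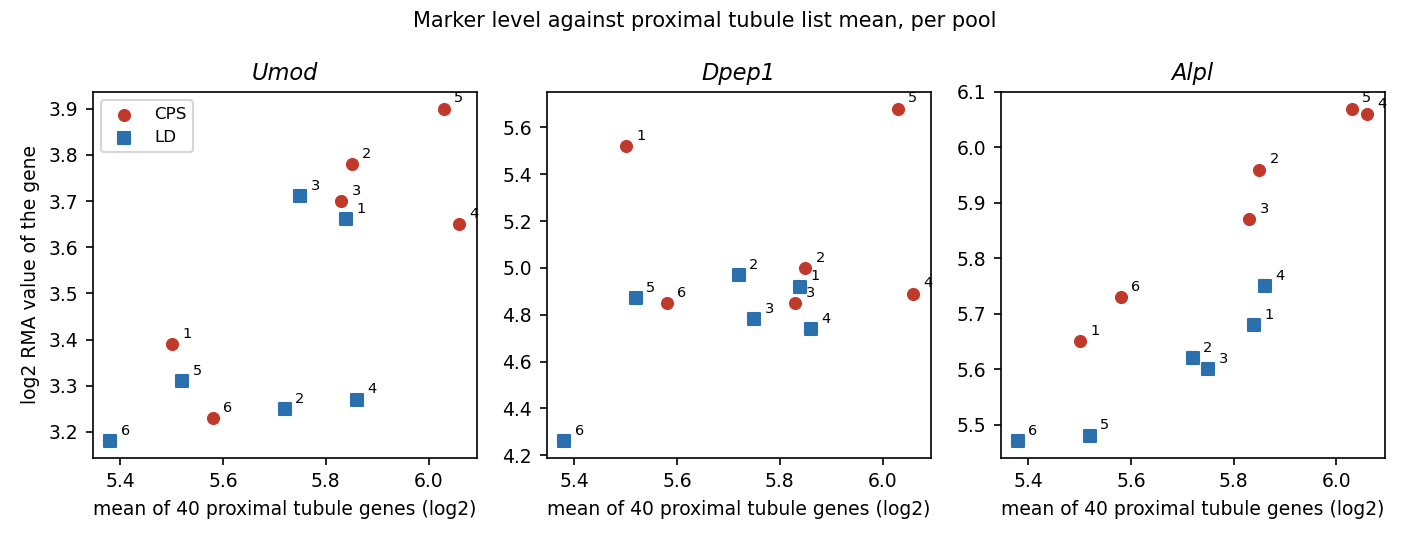
Log2 RMA value of each marker (vertical axes, not starting at 0) against the mean log2 value of 40 proximal tubule genes in the same pool (horizontal axis). Circles are the 6 CPS pools, squares the 6 LD pools, numbers are replicates; Alpl lies along a rising line in each group (r = 0.99 in CPS, 0.95 in LD), while Dpep1 in CPS has no such line (r = -0.02).

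The deviations of each pool from its group mean, taken over all 12 arrays, show which genes of the tubule went with each marker. They are given as descriptions without a test, since the points are the same 12 pools for every gene and share whatever differs between those pools. Of the 40 proximal tubule genes, 32 had an r of at least 0.5 with Alpl, 24 with Umod and 5 with Dpep1. The medians were 0.72 for Alpl, 0.56 for Umod and 0.19 for Dpep1, against 0.03, -0.01 and 0.03 over all named genes. Slc34a1, the main phosphate cotransporter of the brush border, had an r of 0.81 with Alpl, 0.79 with Umod and 0.25 with Dpep1. Anpep, an aminopeptidase of the same membrane, had an r of 0.93 with Alpl, 0.78 with Umod and 0.18 with Dpep1. By this measure Dpep1 followed the proximal tubule genes less than Alpl and Umod did, although it is known as a gene of that segment. Of the 40 genes, 31 had a positive r with Dpep1, 37 with Umod and 39 with Alpl. Whether Dpep1 marks tubule maturity in these pools was not tested.

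In the deviations over 12 arrays the loop of Henle genes had a median r of 0.56 with Alpl, 0.42 with Umod and 0.22 with Dpep1. Within each group Alpl had the highest r with the mean of this list, but Umod and Dpep1 were alike in LD. Alpl had an r of 0.82 with the list mean in CPS and 0.96 in LD. Only the LD value passed the adjustment (exact permutation p = 0.00417, adjusted p = 0.0333, rho 0.94, and 0.83 without LD replicates 5 and 6). The CPS value was 0.45 without CPS replicates 1 and 6, and 0.89 with median centring of the arrays (unadjusted exact permutation p = 0.0264). Umod, itself a gene of this segment, had an r of 0.79 in CPS and 0.54 in LD (exact permutation p = 0.0681 and 0.244). With median centring these were 0.89 and 0.43 (unadjusted exact permutation p = 0.00417 and 0.382). Dpep1 had an r of 0.05 in CPS and 0.54 in LD (exact permutation p = 0.938 and 0.281). These values rested on a pair of pools in each group: r was 0.99 in CPS without replicates 1 and 5, the highest in Dpep1, and -0.41 in LD without replicates 2 and 6. Slc12a1, the sodium-potassium-chloride cotransporter of the thick ascending limb where uromodulin is made, had an r of 0.74 with Umod and 0.80 with Alpl in the deviations over 12 arrays. It was 7.52 to 8.31 in CPS and 7.30 to 8.28 in LD, with a difference of 0.13 (standard error 0.18, exact permutation p = 0.506).

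Among themselves the 3 genes had correlations that moved with the pools included, and none passed the adjustment. Umod and Alpl had an r of 0.85 in CPS (exact permutation p = 0.0431, adjusted p = 0.204, rho 0.77) and 0.32 in LD (exact permutation p = 0.544). The CPS value was 0.36 without CPS replicates 1 and 6. Under median centring of the arrays r was 0.91 in CPS and 0.28 in LD (unadjusted exact permutation p = 0.00694 and 0.532). Umod and Dpep1 had an r of 0.27 in CPS and 0.39 in LD (exact permutation p = 0.629 and 0.515), but 0.94 in CPS without replicates 1 and 6 and 0.80 in LD without replicates 1 and 3. Dpep1 and Alpl had an r of 0.02 in CPS and 0.48 in LD (exact permutation p = 0.939 and 0.382), and 0.47 in CPS without replicates 1 and 5 but -0.37 in LD without replicates 2 and 6. In the deviations over 12 arrays the r was 0.65 for Umod with Alpl, 0.31 for Umod with Dpep1 and 0.17 for Dpep1 with Alpl. Of 9407 genes at or above the median level or in the set, 218 had a higher r with Umod than Alpl did, and 3548 had a higher r with Dpep1 than Alpl did.

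Genes of the progenitor state, from which nephrons are built, gave 1 unadjusted relation in the values as deposited. Dpep1 had an r of -0.75 with the nephron progenitor mean in LD (exact permutation p = 0.0458, adjusted p = 0.204, rho -0.94) and 0.39 in CPS (exact permutation p = 0.449). Without LD replicates 2 and 6 the LD value was -0.95. The relation did not hold under median centring of the arrays, where r in LD was -0.27 (exact permutation p = 0.624). The difference between the groups was not tested. Umod had an r of 0.62 with the same mean in CPS (exact permutation p = 0.174), and 0.25 without CPS replicates 1 and 6. Under median centring it was 0.79 (unadjusted exact permutation p = 0.0361). In LD r of Umod was -0.53, and -0.60 under median centring (exact permutation p = 0.271 and 0.212). Median r of the 7 progenitor genes over 12 arrays was -0.02 for Alpl, -0.01 for Umod and -0.02 for Dpep1. The 11 proliferation genes had a median r of -0.39 with Umod, -0.29 with Dpep1 and -0.12 with Alpl. For Alpl, the collecting duct list (22 genes, median r 0.68), the endothelium (10 genes, 0.58) and the stroma (11 genes, 0.54) went along as well, so its co-variation was not limited to the proximal tubule. For Dpep1, all 13 liver genes had a negative r with a median of -0.41, and all 7 red blood cell genes had a negative r with a median of -0.29. The part of other tissue in the co-variation was not tested.

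**Figure D3:**
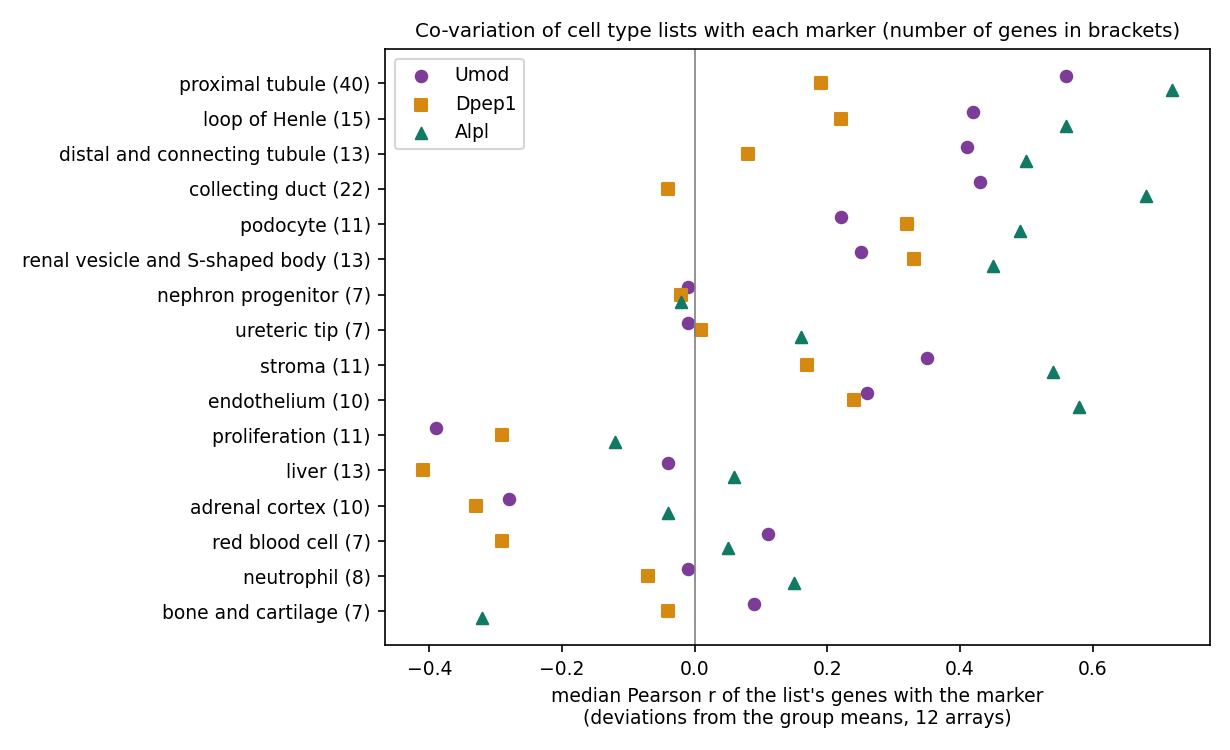
Median Pearson r of the genes of each cell type list with Umod (circles), Dpep1 (squares) and Alpl (triangles), from deviations of the 12 arrays from their group means; the horizontal axis is r and the number of genes is in brackets. Alpl has its highest medians with proximal tubule (0.72) and collecting duct (0.68) genes, and Dpep1 its lowest with liver genes (-0.41).

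The genes most like each marker differed between the markers. They were ranked by r of the deviations over 12 arrays among 9405 other genes at or above the median level. For Alpl the first 5 were Sod3 (extracellular superoxide dismutase) and Slc3a1 (a subunit of the cystine transporter) at 0.96, Slc13a3 (a dicarboxylate transporter) and Slc22a6 (an organic anion transporter) at 0.95, and Hpd (an enzyme of tyrosine breakdown) at 0.94. Of these 5, Slc3a1, Slc13a3 and Slc22a6 belong to the proximal tubule list. For Umod they were Prodh2 at 0.88, Egfr (the receptor of epidermal growth factor) at 0.87, and C10h16orf89, P4hb and Or51e1 at 0.85. For Dpep1 they were Sertad3 at 0.94, Spns2 (a sphingosine phosphate transporter) at 0.93, Tff3 (a trefoil peptide) at 0.92, and A4galt and Ldb1 at 0.90. No gene of the tubule lists was among the first 5 of Umod or Dpep1. In none of the 15 did CPS and LD differ past the threshold: Slc3a1 averaged 8.67 ± 0.28 in CPS and 8.51 ± 0.25 in LD, and Sertad3 5.36 ± 0.29 in CPS and 5.36 ± 0.22 in LD (SD, n = 6 each).

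Set against the proximal tubule mean of its own pool, Alpl was still higher in CPS. Alpl minus that mean was 0.08 ± 0.06 in CPS (0.00 to 0.15) and -0.08 ± 0.09 in LD (-0.15 to 0.08), a difference of 0.16, and 5 LD pools lay below every CPS pool. For Dpep1 the same difference was 0.24 and for Umod 0.08. Dpep1 minus the mean was -0.68 ± 0.44 in CPS (-1.17 to 0.02) and -0.92 ± 0.19 in LD (-1.13 to -0.65), and 0 LD pools lay below every CPS pool. Umod minus the mean was -2.20 ± 0.14 in CPS and -2.28 ± 0.20 in LD. These values come from the contrast used to pick the genes and carry no test.

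Across the segments, few genes passed the threshold. Of 40 proximal tubule genes 3 were higher, 0 lower and 32 positive, with a median difference of 0.16 against 0.01 over all named genes. These were Slc4a4 (the bicarbonate exit transporter), Acy3 (an aminoacylase) and Slc2a2 (the glucose transporter of the basolateral membrane). Slc4a4 was 6.70 to 7.07 in CPS and 6.36 to 6.70 in LD, with every CPS pool above every LD pool, and its difference was 0.27 (standard error 0.08, exact permutation p = 0.00216, the smallest possible, and adjusted p = 0.887 in limma). Slc2a2 was 6.81 ± 0.29 in CPS and 6.46 ± 0.28 in LD, but with a limma p of 0.0411 and an exact permutation p of 0.0606. The count was 1 without CPS replicate 4, LD replicate 5 or LD replicate 6 and 5 without CPS replicate 6. Acy3 lost the threshold in 7 of 12 fits that left a pool out, and Slc2a2 in 8, and both lost it without the pools of highest liver mean. Acy3 also lost it with the tissue covariates (0.15), and Slc2a2 with the methods' test. The median of the list was 0.07 without LD replicate 6, 0.09 without CPS replicate 4, 0.10 without LD replicate 5, and 0.07 without the pools of highest liver mean, where 1 gene was higher. Slc34a1, a defining gene of the segment, was 7.23 ± 0.27 in CPS and 7.20 ± 0.24 in LD (SD, n = 6 each).

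In the loop of Henle list 1 of 15 genes was higher (Enox1, an oxidase of the cell surface, difference 0.21, exact permutation p = 0.0195), 0 lower and 11 positive, with a median of 0.09. That median was 0.02 without LD replicate 6, 0.03 without CPS replicate 2 and 0.00 without both of these pools. The count was 0 without CPS replicate 2 or LD replicate 6 and 3 without CPS replicate 1 or LD replicate 1, and the Enox1 call was lost in 5 of 12 such fits. Of 13 distal and connecting tubule genes 1 was higher (Atp2b1, a calcium pump, 0.17, exact permutation p = 0.0216), and of 22 collecting duct genes 1 (Rhbg, an ammonia transporter, 0.39, exact permutation p = 0.039). Medians there were 0.14 and 0.15, and with a pool left out each count ran from 0 to 3. Atp2b1 lost its call in 5 of the 12 fits and Rhbg in 4. With the tissue covariates none of Enox1 (0.10), Atp2b1 (0.09) and Rhbg (0.42) passed the threshold, and none did without the pools of highest liver mean. The 7 nephron progenitor genes and the 13 genes of the renal vesicle and S-shaped body, the first nephron stages, had 0 past the threshold and medians of 0.07 each. In the proliferation list 0 of 11 passed and 1 was positive, with a median of -0.07. Mcm2 of this list was 9.26 ± 0.04 in CPS and 9.35 ± 0.05 in LD (SD, n = 6 each). Its difference was -0.09 (limma p = 0.104, exact permutation p = 0.00649). It passed the unadjusted threshold with the methods' test and with the intensity trend and robust spread.

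The relatives and partners of uromodulin gave 0 genes past the threshold of 7 measured, with a median of 0.18. Muc1, a mucin of distal tubule cells, had the lowest p. Its log2 signal was 5.49, 5.72, 5.64, 5.85, 5.90 and 5.33 in CPS pools 1 to 6, and 5.54, 5.32, 5.32, 5.69, 5.41 and 4.51 in LD pools. LD replicate 6 stood far below the rest, and the difference was 0.36 (standard error 0.18, exact permutation p = 0.0628), or 0.20 without that pool. Gp2, the closest relative of uromodulin and known from the pancreas, was 2.62 ± 0.26 in CPS and 2.43 ± 0.16 in LD, within the range of the olfactory receptor genes (SD, n = 6 each).

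The genes that act with membrane dipeptidase also gave 0 past the threshold, of 11, with a median of 0.09. Glutathione is made by Gclc, Gclm and Gss, whose differences were 0.06, 0.12 and 0.00 with standard errors of 0.11, 0.09 and 0.07. Anpep, which can split the same dipeptides, was 7.88 ± 0.35 in CPS and 7.66 ± 0.29 in LD (SD, n = 6 each), with a difference of 0.22 (exact permutation p = 0.253). Ltc4s and Alox5, which make leukotrienes upstream of the dipeptidase step, differed by 0.20 and 0.26 (exact permutation p = 0.132 and 0.115). The sister genes Dpep2 and Dpep3 were 3.05 ± 0.34 and 2.50 ± 0.26 in CPS and 2.96 ± 0.51 and 2.36 ± 0.24 in LD. The difference of Dpep3 was 0.14 (exact permutation p = 0.316), and it was 0.41 and past the unadjusted threshold in limma once the liver and adrenal cortex means were covariates.

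Among the genes that act with alkaline phosphatase 1 of 8 was higher, Enpp1, which makes the pyrophosphate that alkaline phosphatase removes. Its log2 signal was 6.73, 6.70, 6.59, 6.65, 6.75 and 6.30 in CPS pools 1 to 6, and 6.31, 6.51, 6.38, 6.46, 6.28 and 5.82 in LD pools. Of the CPS pools 5 stood above all LD pools, and replicate 6 was the lowest in both groups. The difference was 0.33 (standard error 0.12, limma p = 0.0177, adjusted p = 0.887, exact permutation p = 0.0152). It stayed past the unadjusted threshold in all 12 fits that left a pool out, with values from 0.23 to 0.39, and was 0.44 with the tissue covariates. Without the pools of highest liver mean it was 0.22 and just outside the threshold. Over the deviations, Enpp1 had an r of 0.71 with Dpep1, 0.52 with Alpl and 0.45 with Umod. Enpp3, its relative, differed by 0.21 (standard error 0.11, exact permutation p = 0.0714), and by 0.36, past the threshold, with the tissue covariates. Nt5e, which frees adenosine from AMP, differed by 0.12, Phospho1, a phosphatase of mineralizing matrix vesicles, by 0.11, and Slc20a1, a phosphate carrier, by 0.04, with exact permutation p of 0.465, 0.613 and 0.435.

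**Figure D4:**
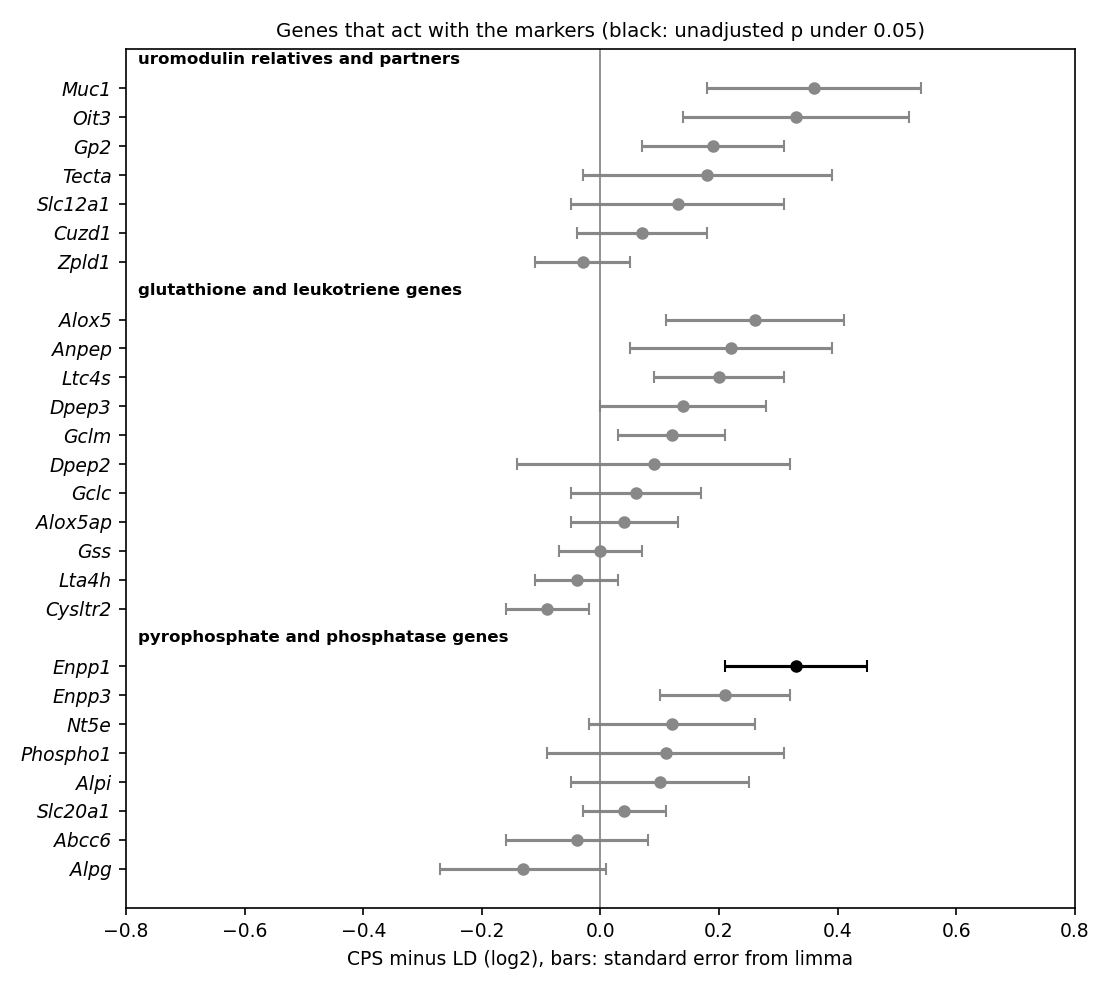
CPS minus LD on the log2 scale (horizontal axis) for 26 genes that act with uromodulin, membrane dipeptidase or alkaline phosphatase, with standard errors from limma over 6 pools in each group. Enpp1 (0.33) is the only gene drawn in black, for an unadjusted p under 0.05; Muc1 (0.36) has a larger difference and a wider error.

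The shared anchor of the markers was looked at through 2 lists. Of 18 genes that build or process GPI anchors 1 was higher, 0 lower, and the median was 0.03. The gene was Pgap1, which trims a fatty acid from the anchor in the endoplasmic reticulum. It was 7.15, 7.23, 7.11, 7.13, 7.19 and 7.27 in CPS pools 1 to 6, and 6.87, 6.91, 7.11, 7.02, 6.98 and 6.77 in LD pools. Every CPS pool stood above every LD pool, the nearest by less than the rounding of these values. The difference was 0.24 (standard error 0.07, exact permutation p = 0.00216, and adjusted p = 0.887 in limma), and it ran from 0.20 to 0.27 with a pool left out. Of 42 other genes whose proteins carry the anchor 2 were higher and 0 lower, with 34 positive and a median of 0.09. The count higher was 1 without CPS replicate 2 or LD replicate 5, 4 without LD replicate 2 or 3, and 5 without CPS replicate 6. Xpnpep2, an aminopeptidase of the proximal brush border, was 4.13 ± 0.28 in CPS and 3.62 ± 0.36 in LD (SD, n = 6 each), with a difference of 0.51 (standard error 0.17, limma p = 0.0125, exact permutation p = 0.0152). It was 0.39 and no longer past the threshold with the tissue covariates. Cntn3, a neural adhesion protein, differed by 0.23 (exact permutation p = 0.0152), and lost the threshold in 4 of 12 fits that left a pool out and with either tissue alternative.

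Alpl is also a gene of bone, and bone and cartilage genes were checked beside it. Of 7 measured 0 were higher and 1 lower. Of the 7, 4 had a positive difference. The median difference was 0.13, and it ran from -0.04 to 0.17 with a pool left out. Ibsp, a protein of bone matrix, was 2.86 ± 0.14 in CPS and 2.92 ± 0.18 in LD (SD, n = 6 each), close to the upper end of the olfactory receptor genes. Phex, an endopeptidase of osteoblasts, was 2.83 ± 0.22 in CPS and 3.26 ± 0.44 in LD, with a difference of -0.43 (standard error 0.19, exact permutation p = 0.0498) whose call was lost in 6 of 12 fits that left a pool out and in 5 other alternatives, among them both scalings and the methods' test. The median r of the 7 genes with Alpl was -0.32. Neutrophils also make alkaline phosphatase, and 0 of 8 neutrophil genes passed the threshold, with a median difference of 0.00 and a median r with Alpl of 0.15.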

How the data were processed

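RNA of 12 pools of fetal kidney was hybridized to Affymetrix Rat Gene 2.1 ST arrays. The authors deposited log2 values made by RMA, with the Affymetrix Expression Console according to the submitters' processing notes (version not given in the sources used here). Scans of the arrays and detection calls were not used here, and every column was mapped to a sample. Groups follow the sample titles, and the p-values measure the spread between pools. Of the 36685 clusters, 14824 had a single symbol in the platform's annotation, 829 had more than 1 and 21032 had none; the brightest cluster was kept where a gene had several, which left 14557 genes. Array medians were 3.31 to 3.50, r between arrays 0.978 to 0.987 and the median residual SD 0.23, and precision is limited by how many arrays there are.

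All clusters were fitted with limma 3.58.1 (lmFit and eBayes, two-sided) in R 4.3.3, with Benjamini-Hochberg adjustment over all clusters. Exact permutation tests were two-sided, over 924 regroupings of pools (smallest p 0.00216) or 720 pairings. The members and the 21 lists were chosen with earlier results of these data known. Of 418 listed genes 283 were measured. Named genes were the 3 members, the 5 genes most like each, up to 6 genes per list past the threshold by p (or the lowest 2), the partner lists and 12 tissue markers. The limma fit was tested on simulated data, and the other steps were not. Promoter windows are those of RefSeq for GRCr8, and all 3 genes matched by symbol. Alternatives were the methods' unpaired test, array weights, median centring, a replicate block, eBayes with trend and robust spread, a second quantile normalization, clusters at or above the median level only, tissue covariates and pools left out.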

Additional observations from a re-analysis of the deposited data

Results flagged for a closer look

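Of 174 groups of 6 pools examined, 11 held a pool whose distance to its nearest neighbour was an unusually large share of the group's range by Dixon's criterion, which chance meets in about 5% of groups. LD replicate 6 was such a pool for 5 genes, always as the lowest. Dpep1 was 4.26 there, with the next LD pool at 4.74. Muc1 was 4.51, with the next at 5.32, and Enpp1 was 5.82, with the next at 6.28. Sertad3 and Ldb1, both picked for their likeness to Dpep1, were 4.94 and 9.41, with the next LD pools at 5.34 and 9.58. The same pool had the highest liver mean in LD.

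CPS replicate 6 stood apart at the bottom in Enpp1 at 6.30 (next 6.59) and in Wnt9b, a signal of the ureteric bud, at 3.58 (next 4.55). Among the other pools, Xpnpep2 was 2.92 in LD replicate 5 (next 3.61) and Alpi, the intestinal alkaline phosphatase, was 1.70 in CPS replicate 4 (next 1.90). Dpep2 was highest in LD replicate 1 at 3.93 (next 3.06), and Cyp21a1, a steroid enzyme of the adrenal cortex, in LD replicate 2 at 2.82 (next 2.51).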

How the results depend on the processing

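Dpep1, Umod and Alpl kept a positive difference in every alternative run. The genes were picked with this contrast known and the runs reuse the same arrays, so the sign gives no support. Across pools left out, 1639 to 2555 clusters passed the unadjusted threshold, 747 to 1164 of them higher in CPS and 849 to 1391 lower. With only clusters at or above the median level 1223 passed and 618 were lower, where fewer clusters were tested. Median centring gave 672 lower, and of the clusters that passed, 63.1% were then higher, against 44.8% as deposited and 54.6% after further quantile normalization. The replicate numbers did not pair the pools (correlations of same-numbered deviations from -0.06 to 0.05). With a replicate block 1984 clusters passed, and Umod, Dpep1 and Alpl differed by 0.21, 0.38 and 0.29, while among the genes described Muc1 came to pass and Acy3, Rhbg and Cntn3 no longer did. Without the pair of pools farthest from the median, r of Umod with Dpep1 was 0.94 in CPS and 0.80 in LD, that of Umod with Alpl 0.36 in CPS, and that of Dpep1 with Alpl 0.47 in CPS and -0.37 in LD. Spearman's rho of Umod with Alpl in CPS was 0.77, with an exact permutation p of 0.103. Under median centring r of that pair in CPS was 0.91, with an unadjusted exact permutation p of 0.00694. Deviations over 12 arrays gave 0.65 for Umod with Alpl and 0.17 for Dpep1 with Alpl, unlike the LD pools alone. Cyp11a1 turned to -0.06 with the tissue covariates, which contain it. For the rest the cause was not tested. Another cluster of the same symbol could not be tried, since each gene had 1.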

Other observations

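Among the other cell types of the kidney, stroma had the most genes past the unadjusted threshold. Of 11 stroma genes 4 were higher in CPS and 0 lower, with a median difference of 0.19. Postn, a matrix protein of young connective tissue, was 9.10 ± 0.14 in CPS and 8.83 ± 0.13 in LD (SD, n = 6 each; difference 0.27, exact permutation p = 0.00866, adjusted p = 0.887 in limma). Foxd1, the factor of stromal progenitors, was 6.99 ± 0.13 in CPS and 6.80 ± 0.06 in LD (difference 0.19, exact permutation p = 0.00433), and the others were Lum and Col1a1. Without the pools of highest liver mean 1 of these, Postn, passed the threshold. With the tissue covariates Lum and Col1a1 passed it, while Postn (0.25) and Foxd1 (0.12) did not. The count was 2 without CPS replicate 2 or 5 and 7 without CPS replicate 6. Of 11 podocyte genes 1 was higher (Pla2r1, 0.33) and 1 lower (Tcf21, a factor of podocytes and stroma). The median difference of this list was 0.16, and 10 of the 11 genes had a positive difference. Pla2r1 had an exact permutation p of 0.0693 and lost the call in 7 of 12 fits that left a pool out, with the methods' test, the intensity trend, the array weights and both tissue alternatives. Tcf21 was 9.68 ± 0.10 in CPS and 9.88 ± 0.12 in LD, with a difference of -0.21 (exact permutation p = 0.0152) that passed the unadjusted threshold in all 12 fits that left a pool out, but not under median centring or without the pools of highest liver mean (-0.17 in each). In the endothelium and ureteric tip lists 0 of 10 and 0 of 7 genes passed, with medians of 0.05 each.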
